A study of Mus musculus with 4 samples.

Results

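The LIF-STAT3 pathway was followed through 8 genes of the 24594 in the count table. They were chosen by name for their place in the pathway, with earlier results of these data known: the receptor chains Lifr and Il6st, the kinase Jak1, the transcription factor Stat3, and the target genes Socs3, Pim1, Pim3 and Junb. All 8 were found in the table by Entrez identifier, and all 8 passed the filter on low counts, with between 361 and 3126 counts in a library. Libraries were made from poly(A) RNA of mESCs (mouse embryonic stem cells) on a 129S6/SvEvTac background. There were 2 libraries of wild-type (WT) and 2 of Snf2l knockout (KO) cells, all untreated and handled in 1 batch. By the study's methods all lines were maintained in medium with fetal calf serum and leukemia inhibitory factor, so untreated does not mean without this cytokine. Snf2l, listed as Smarca1, encodes the ISWI chromatin remodeler ATPase SNF2L. By the study's methods each mutant was made with Cas9 and is represented by 1 clone, so the genotype and the clone cannot be told apart. The methods call the RNA-seq replicates of the study independent, and neither they nor the labels say whether these duplicates were separate cultures. The p-values therefore measure the spread between these libraries, which may be technical.

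In mESCs, the cytokine leukemia inhibitory factor (LIF) joins its receptor LIFR to the shared signal-transducing chain gp130, the product of Il6st. The receptor-bound kinase JAK1 then phosphorylates STAT3, which dimerizes, enters the nucleus and activates target genes. This pathway sustains self-renewal of mESCs in serum medium, and SOCS3, the product of a direct target gene, binds gp130 and restrains the kinase.

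Among the 8 genes, Lifr, Il6st, Jak1 and Stat3 had differences between genotypes that did not pass the test, and of the target genes Socs3, Pim1, Pim3 and Junb only Pim3 was called. Of the 8 genes, 1 passed an adjusted p-value of 0.05 (edgeR quasi-likelihood, adjusted by Benjamini-Hochberg over the 13840 genes tested), against a background of 9.21% of all tested genes. This was Pim3, which was 1.31-fold higher in the knockout. In 5 of the 8 genes the libraries of the 2 genotypes did not overlap, 4 with the knockout above and 1 with it below, and 50.5% of all tested genes did not overlap in this way. The log2 fold changes of the 8 genes had a median of 0.14, with 6 positive and 2 negative, while the median of all tested genes was 2e-04. None of the 8 was a differentially expressed gene (DEG) by the threshold of the study, an adjusted p-value under 0.01 with over 2-fold change, in edgeR or in DESeq2. That threshold was passed by 0.990% of the tested genes, and in edgeR 5 of the 8 genes passed an unadjusted p-value of 0.05, as did 22.2% of the tested genes.

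The targeted gene and the labelled cell type were checked first. Total counts were 13771642 and 15353956 for WT and 15608803 and 15290806 for the knockout. Counts of Smarca1 were 620 and 626 against 37 and 31, and its log2 fold change was -4.30 (SE 0.159, adjusted p = 2.65e-10 in edgeR). All 10 markers of mESCs were expressed, and 1 of them, Zfp42 on chromosome 8, was called lower. On chromosome 8, the knockout was lower for 93.8% of 753 tested genes (median log2 fold change -0.51), and all 6 tested genes of chromosome Y were lower, with a median of -4.57. Outside both chromosomes 6.18% of the tested genes were called, which is the background for the 7 of the 8 pathway genes that lie elsewhere. Of all tested genes 4.0% were called higher. Of the 10 primitive endoderm markers, 9 were tested and 5 were called higher. The summed level of these markers was 154 and 130 CPM (counts scaled to a common library size) in WT and 211 and 185 CPM in the knockout. Most of this sum came from Lama1, at 80.2 and 56.7 CPM in WT, and Col4a1, at 55.7 and 54.9 CPM in WT. Col4a1 was called and Lama1 was not (edgeR adjusted p = 0.0733). Of the 10 fibroblast markers, 6 were tested and 2, Col1a1 and Col3a1, were called higher, with summed levels of 14.5 and 12.9 CPM in WT and 26.4 and 27.9 CPM in the knockout and with Lum and Fap at 0 in every library. The part of these cells in the results on pathway genes was not tested, and in bulk RNA fewer cells of a type and less RNA per cell cannot be told apart.

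**Figure D1:**
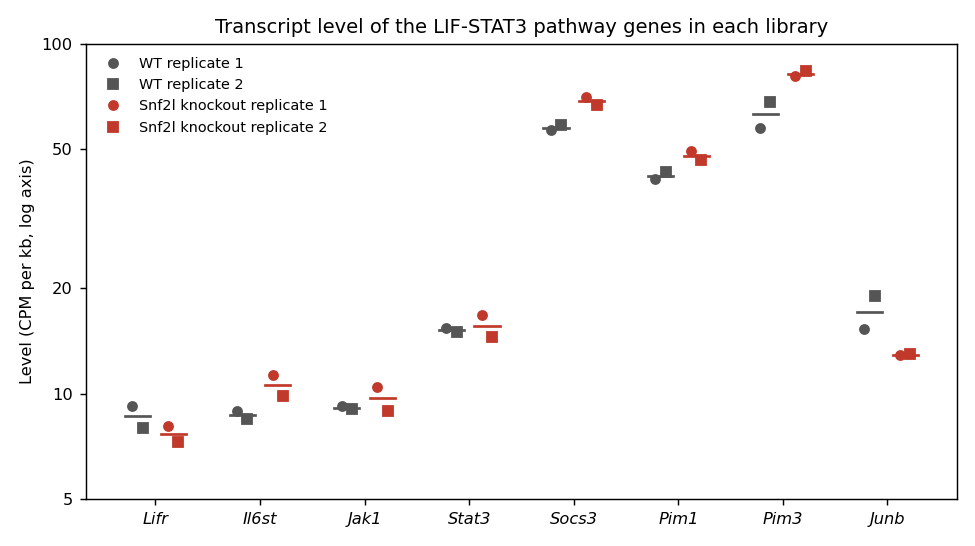
Level of each of the 8 genes in each library, in CPM per kb of gene length on a log axis. Grey marks WT and red the Snf2l knockout, circles replicate 1 and squares replicate 2, and horizontal bars the mean of 2 libraries. Both knockout libraries lie above both WT libraries for Il6st, Socs3, Pim1 and Pim3 and below them for Junb.

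In WT cells the target genes were the most abundant transcripts of the set when compared per kb of gene length. Pim3 stood at 62.9 ± 7.72 CPM per kb (SD, n = 2, as for all levels that follow) and Socs3 at 57.7 ± 1.35, and the libraries of these neighbours in the order overlapped. Pim1 followed at 42.0 ± 1.45 CPM per kb, below both libraries of Socs3. Junb at 17.1 ± 2.59 and Stat3 at 15.2 ± 0.237 CPM per kb overlapped each other and lay below Pim1. Jak1, at 9.13 ± 0.116 CPM per kb, lay below Stat3 and just above Il6st, at 8.69 ± 0.292, and Lifr at 8.61 ± 0.871 overlapped both. Among all tested genes these WT levels ranked from percentile 59.0 for Lifr to percentile 93.6 for Pim3. In the knockout the order was Pim3, Socs3, Pim1, Stat3, Junb, Il6st, Jak1 and Lifr, at 82.3 ± 2.16, 68.6 ± 2.44, 48.0 ± 2.03, 15.6 ± 1.61, 12.9 ± 0.0637, 10.6 ± 1.06, 9.69 ± 1.12 and 7.68 ± 0.576 CPM per kb. Here Pim3 lay above Socs3 in both libraries, and of the neighbours in this order only Il6st and Jak1 overlapped.

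To ask whether the receptor differed between genotypes, Lifr and Il6st were compared. Lifr (Entrez gene 16880, chr15:7090610-7197489 of mm10), which codes for the chain that gives the complex its specificity for LIF, had 99.5 and 86.2 CPM in WT and 87.2 and 78.4 CPM in the knockout. The genotypes overlapped. Its log2 fold change was -0.16 (SE 0.102, 95% interval -0.38 to 0.055, edgeR adjusted p = 0.386). Il6st (Entrez gene 16195, chr13:112464070-112506860) had 98.7 and 94.2 CPM in WT and 126 and 109 CPM in the knockout. Both knockout libraries were higher, but the difference did not pass the adjusted threshold, with a log2 fold change of 0.28 (SE 0.0980, 95% interval 0.074 to 0.49, edgeR adjusted p = 0.0911). It passed only when knockout replicate 2 was left out, at 0.38 with an adjusted p-value of 0.0122 in edgeR, or under a replicate block. The ratio of Il6st to Lifr per kb was 0.964 and 1.06 in WT against 1.4 and 1.35 in the knockout. The transcripts of both chains were thus close to equal per kb in WT, and the ratio was higher in both knockout libraries. The smallest p-value of an exact two-sided permutation test with 2 libraries against 2 is 0.333, so this ratio was not tested. Together, Lifr and Il6st made up most of the summed level per kb of 7 receptor genes of the interleukin-6 family in every library, with Lifr at 37.2% ± 2.55 in WT and 30.8% ± 0.0982 in the knockout.

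Jak1 and Stat3 carry the signal from the receptor to the nucleus. Jak1 (Entrez gene 16451, chr4:101151974-101265282) had 66.6 and 65.4 CPM in WT and 75.7 and 64.3 CPM in the knockout, and its log2 fold change was 0.086 (SE 0.102, 95% interval -0.13 to 0.30, edgeR adjusted p = 0.689). Stat3 (Entrez gene 20848, chr11:100886806-100939594) had 146 and 143 CPM in WT and 160 and 138 CPM in the knockout, and its log2 fold change was 0.040 (SE 0.0953, 95% interval -0.16 to 0.24, edgeR adjusted p = 0.859). For both genes knockout replicate 1 was the highest and knockout replicate 2 the lowest of the 4 libraries, so the genotypes overlapped. As a fold change, the interval of Stat3 ran from 0.893 to 1.18. Stat3 contributed the largest share of the summed level per kb of the 7 Stat genes, 37.6% ± 0.206 in WT and 37.0% ± 2.92 in the knockout. Jak1 contributed 39.8% ± 0.290 of the summed level of the 4 Janus kinase genes in WT and 47.4% ± 0.109 in the knockout, while Jak3, which lies on chromosome 8, went from 31.1% ± 1.28 to 24.0% ± 0.192.

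**Figure D2:**
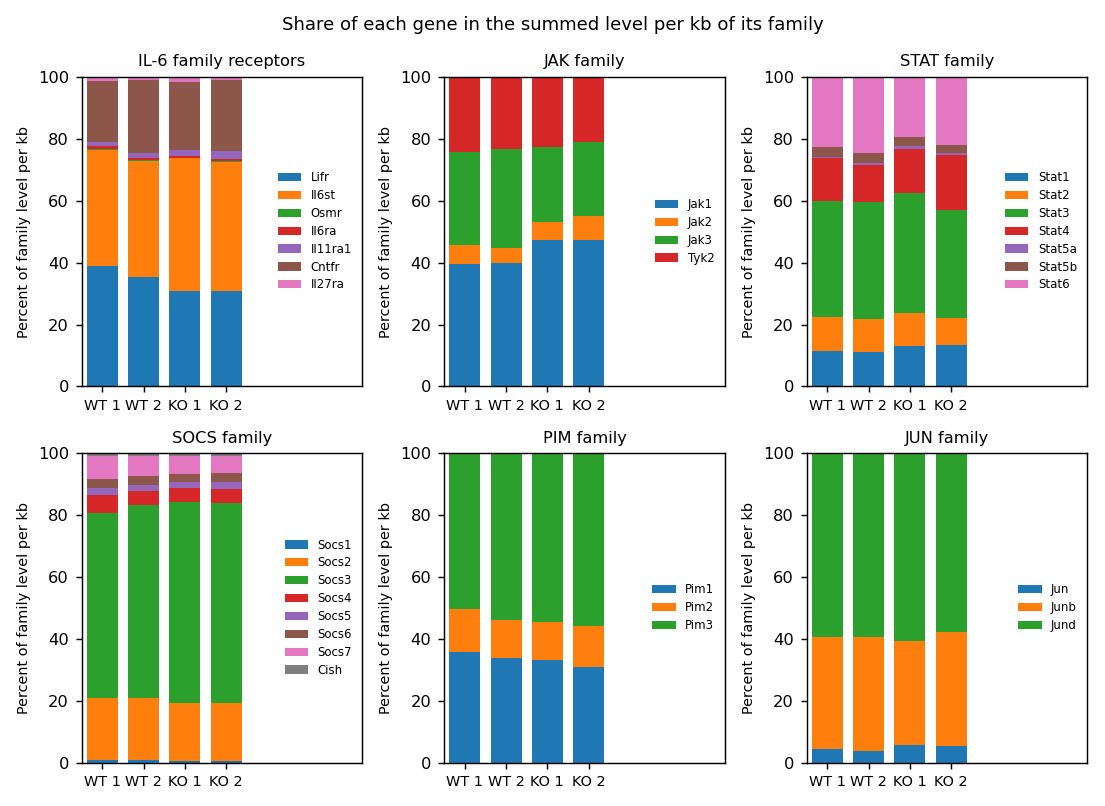
Share of each gene in the summed level per kb of its family, in percent, for each of the 4 libraries (WT 1 and 2, KO 1 and 2) in 6 families. The mean share of Jak1 is 39.8% in WT and 47.4% in the knockout and that of Jak3 is 31.1% and 24.0%, while the mean shares of Stat3, Socs3, Pim3 and Junb move by less than 4 percentage points.

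The target genes Socs3, Pim3 and Junb gave the values on which the comparison of targets turns, and their promoters are shown to place the sequence beside the response. Each line is the RefSeq promoter window of GRCm38.p6 (mm10), 250 bases before to 50 bases after the annotated start, on the strand of the gene: chr11:117969317-117969616 on the minus strand for Socs3, chr15:88861944-88862243 on the plus strand for Pim3 and chr8:84978699-84978998 on the minus strand for Junb. Capitals mark a match to the STAT consensus TTCNNNGAA in Socs3 and to the TATA box TATAAA in Junb.
Socs3: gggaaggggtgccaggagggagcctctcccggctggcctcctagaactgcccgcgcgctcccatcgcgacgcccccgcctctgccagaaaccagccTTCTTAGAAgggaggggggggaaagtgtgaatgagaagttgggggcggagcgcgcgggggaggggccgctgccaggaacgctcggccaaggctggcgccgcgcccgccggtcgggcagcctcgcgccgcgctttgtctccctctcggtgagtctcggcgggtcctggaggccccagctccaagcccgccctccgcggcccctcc
Pim3: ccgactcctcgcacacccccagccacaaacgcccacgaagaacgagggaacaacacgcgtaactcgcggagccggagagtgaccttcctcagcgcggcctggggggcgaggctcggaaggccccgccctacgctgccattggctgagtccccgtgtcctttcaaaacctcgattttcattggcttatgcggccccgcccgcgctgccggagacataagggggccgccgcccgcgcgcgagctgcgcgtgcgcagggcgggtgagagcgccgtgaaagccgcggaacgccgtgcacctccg
Junb: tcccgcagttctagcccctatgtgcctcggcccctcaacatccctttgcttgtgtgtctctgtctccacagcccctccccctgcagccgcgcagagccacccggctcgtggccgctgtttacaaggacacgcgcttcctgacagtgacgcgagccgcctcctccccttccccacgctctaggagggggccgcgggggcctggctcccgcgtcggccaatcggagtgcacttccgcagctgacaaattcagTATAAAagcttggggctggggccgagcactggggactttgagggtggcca

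RefSeq gave 10 promoter windows for the 8 genes, and 1 of them, that of Socs3, held the STAT consensus, which reads the same on both strands. The match in Socs3, TTCTTAGAA, began 154 bases before the annotated start used for its window. That window lies wholly inside the gene span of Socs3, chr11:117966079-117970336, so this start is not the outermost one. Over all 32851 promoter windows of the same length the consensus was found in 8.30%, and in 6.62% of those of tested genes. Windows were also searched for 10 further target genes of STAT3 or LIF, which are compared below. The consensus was found in 3 of their 11 windows, in Icam1, called higher, and in Bcl6, not called. TATAAA was searched on both strands and was found in 1 of the 10 windows, that of Junb, at the annotated start itself, against 13.6% of all windows and 7.16% of those of tested genes. A match is a description of the sequence and does not show binding.

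To ask whether the output of the pathway differed, the target genes were compared between genotypes. Socs3 (Entrez gene 12702, chr11:117966079-117970336), the feedback inhibitor, had 145 and 150 CPM in WT and 180 and 171 CPM in the knockout. Both knockout libraries were higher, with a log2 fold change of 0.25 (SE 0.0878, 95% interval 0.063 to 0.44, edgeR adjusted p = 0.0958). Chromosome 11 as a whole had a median log2 fold change of -0.087, and when the median of each gene's own chromosome was removed, Socs3 stood at 0.34 with an edgeR adjusted p-value of 0.0438. The GC content of its transcript was 58.7%, in the highest decile, and with GC offsets, added after seeing the data, it stood at 0.18 with 0.229. Only the replicate block, alone or with GC offsets, also brought Socs3 past the threshold. Pim1 (Entrez gene 18712, chr17:29490785-29496111), a serine/threonine kinase that promotes survival, had 138 and 145 CPM in WT and 166 and 156 CPM in the knockout. Its knockout libraries were also the higher ones, by a smaller margin, with a log2 fold change of 0.19 (SE 0.0891, 95% interval 0.0013 to 0.38, edgeR adjusted p = 0.222). The exons of Pim1 overlap those of the antisense gene Gm26885 by 488 bp in the GENCODE annotation, and the sources used here do not state whether counting used the strand and differ on the library kit.

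Pim3 (Entrez gene 223775, chr15:88862194-88865726), a second kinase of the PIM family, had 139 and 166 CPM in WT and 196 and 203 CPM in the knockout. The knockout libraries lay close together and above both WT libraries, which differed from each other by 0.25 on the log2 scale. Its log2 fold change was 0.39 (SE 0.0981, 95% interval 0.18 to 0.60, edgeR adjusted p = 0.0212), and 4.0% of all tested genes were called higher at this threshold. The call depended on WT replicate 1, the lower of the WT libraries. Without it the log2 fold change was 0.27 with an edgeR adjusted p-value of 0.415, and with the median of its own chromosome removed it was 0.35 with 0.0594. The GC content of the Pim3 transcript was 61.9%, in the highest decile of tested genes, in which the median difference was 0.0817 between knockout and WT and 0.0999 between the WT libraries on the log2 scale. With GC offsets, an alternative added after seeing the data, Pim3 stood at 0.31 (edgeR adjusted p = 0.0439). The ratio of Pim3 to Pim1 per kb was 1.4 and 1.59 in WT against 1.63 and 1.8 in the knockout. Pim3 was the largest contributor to the PIM family in every library, at 52.0% ± 2.45 of its summed level per kb in WT and 55.2% ± 1.09 in the knockout.

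The tested genes with at least 10 CPM whose profiles over the 4 libraries were nearest to that of Pim3 were Cacfd1, Ppox and Zfp951, at root mean square distances of 0.00871, 0.0186 and 0.0220 on the log2 scale. Cacfd1 had 8.82 and 10.4 CPM in WT and 12.4 and 12.7 CPM in the knockout, the same order of libraries as Pim3. This likeness rests on 4 libraries and is a description.

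**Figure D3:**
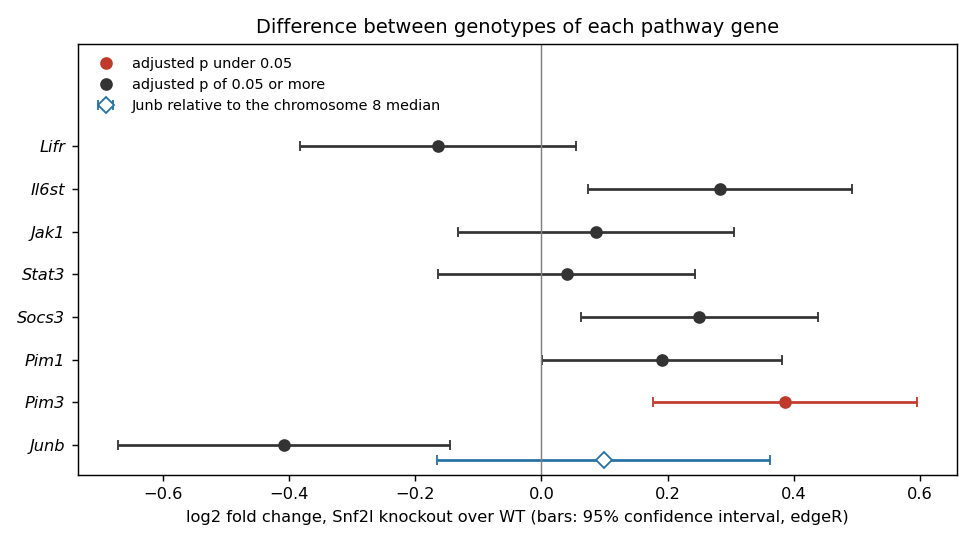
Log2 fold change of each of the 8 genes, Snf2l knockout over WT, with the 95% confidence interval of the edgeR fit as bars. Red marks the adjusted p-value under 0.05, and the open blue diamond gives Junb relative to the chromosome 8 median. The interval of Pim3 runs from 0.18 to 0.60, and Junb moves from -0.41 to 0.099 once the median of its chromosome is removed.

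Junb (Entrez gene 16477, chr8:84976909-84978748), which codes for an AP-1 transcription factor subunit, was the only target gene of the 8 with a negative log2 fold change, and it is the only one of the 8 on chromosome 8. It had 27.7 and 34.3 CPM in WT and 23.3 and 23.5 CPM in the knockout. The WT libraries differed from each other by 0.31 on the log2 scale, and both knockout libraries lay below them. Its log2 fold change was -0.41 (SE 0.123, 95% interval -0.67 to -0.14, edgeR adjusted p = 0.0522). This value was close to the threshold, and it passed with an adjusted p-value of 0.0343 without knockout replicate 1, 0.0352 without knockout replicate 2 and 0.0198 without WT replicate 1, but was -0.24 with 0.506 without WT replicate 2 (edgeR). Among the tested genes of chromosome 8, 60.2% were called lower, against 5.21% of all tested genes, the quartiles of the chromosome were -0.63 and -0.35, and Junb stood at percentile 67.5 of the chromosome and at percentile 9.1 of all tested genes.

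Against the chromosome 8 median, Junb did not differ between genotypes beyond the spread between libraries. Relative to that median its log2 fold change was 0.099 (SE 0.123, 95% interval -0.17 to 0.36, edgeR adjusted p = 0.729), with 4.78% of all tested genes called in the fit that removes the chromosome 8 median. It stayed within -0.042 and 0.25 under the alternatives that kept a chromosome 8 reference, with the sign turned only when WT replicate 1 was left out. The 10 tested genes nearest to Junb were all lower in the knockout, by log2 fold changes from -2.0 to -0.18 with a median of -0.45. In GENCODE the exons of Junb overlap those of its neighbour Prdx2 on the other strand by 173 bp, and Prdx2 had a log2 fold change of -0.49. The ratio of Junb to its paralog Jund, which also lies on chromosome 8, was 0.608 and 0.625 per kb in WT against 0.557 and 0.640 in the knockout, so the genotypes overlapped.

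**Figure D4:**
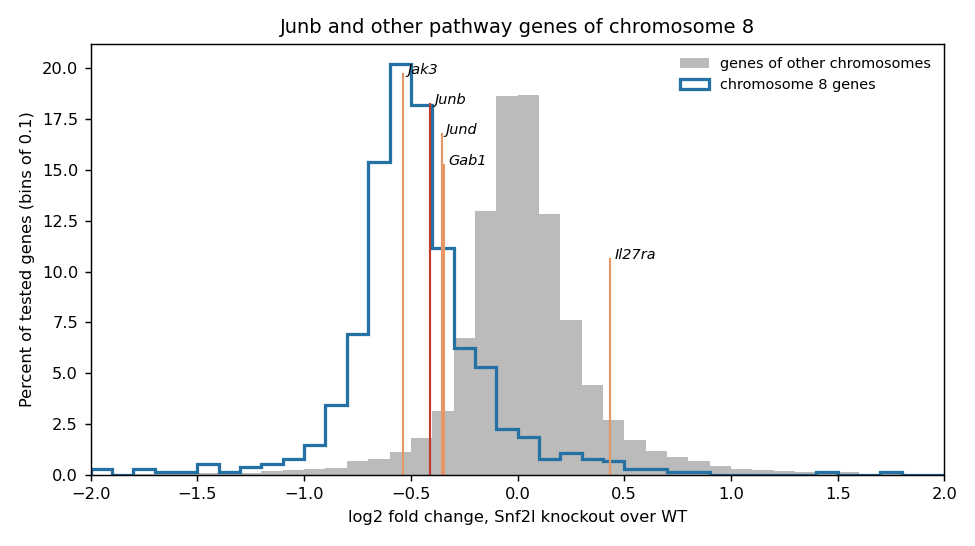
Distribution of log2 fold changes of tested genes, Snf2l knockout over WT, in percent of genes per bin of 0.1, for chromosome 8 (blue outline) and all other genes (grey), over the range from -2 to 2, which leaves out 30 genes of other chromosomes and 0 of chromosome 8. Vertical lines mark Junb (red) and 4 other pathway genes of chromosome 8 (orange). Junb, Jak3 and Jund lie between the chromosome 8 quartiles of -0.63 and -0.35, Gab1 lies just above them at -0.34, and Il27ra lies above 0.

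Next, 64 other genes of the pathway were examined from lists of ligands, receptors, kinases and STATs, adaptors and inhibitors, targets and paralogs. Of these, 57 were tested, 7 were called higher and 2 lower, and their log2 fold changes had a median of 0.10. Of the 7 higher calls 6 lay among the targets. Of 13 further target genes of STAT3 or LIF, 6 were called higher and 0 lower, 9 passed an unadjusted p-value of 0.05 in edgeR, all of them with the knockout higher, 12 had a positive log2 fold change and the median was 0.37. The background was 4.0% of all tested genes called higher and a median of 2e-04. The list was written with earlier results of these data known.

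Gbx2, a homeobox factor that sustains self-renewal downstream of STAT3, had 80.6 and 80.4 CPM in WT and 127 and 130 CPM in the knockout, with 0.67 as its log2 fold change (SE 0.0904, edgeR adjusted p = 0.000296). Tbx3, a T-box factor of the LIF response, had 48.7 and 50.04 CPM in WT and 84.6 and 72.5 CPM in the knockout, with 0.67 (SE 0.103, edgeR adjusted p = 0.000818). Ier3, an immediate early gene, was the least abundant of them, with 5.29 and 5.15 CPM in WT and 8.67 and 9.24 CPM in the knockout and a log2 fold change of 0.78 (edgeR SE 0.162, adjusted p = 0.00634). In each of these 3 genes the genotypes were well separated, and each kept its call under every alternative, with largest adjusted p-values of 0.00165, 0.00378 and 0.0476. Icam1, which codes for an adhesion molecule, rose from 105 ± 2.11 CPM to 143 ± 0.00655 CPM, with a log2 fold change of 0.44 (edgeR adjusted p = 0.00483). Its call was lost when WT replicate 1 was left out, at 0.42 with an adjusted p-value of 0.0748 in edgeR.

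Klf4, a pluripotency factor activated by STAT3, rose from 123 ± 1.06 CPM to 155 ± 14.3 CPM, with a log2 fold change of 0.34 (edgeR adjusted p = 0.0359). Bcl3, a nuclear member of the IκB family, rose from 38.9 ± 0.357 CPM to 50.4 ± 0.127 CPM, with 0.37 (edgeR adjusted p = 0.0274). Both lost their call in DESeq2, at a log2 fold change of 0.34 (adjusted p = 0.0558) for Klf4 and 0.37 (adjusted p = 0.0758) for Bcl3. With the filter of at least 1 count in total, the edgeR adjusted p-values were 0.0702 for Klf4 and 0.0505 for Bcl3. When the median of the own chromosome was removed, they were 0.0896 for Klf4 and 0.0921 for Bcl3. With GC offsets in edgeR Klf4 and Bcl3 stood at log2 fold changes of 0.32 (adjusted p = 0.0570) and 0.30 (adjusted p = 0.0758). Both calls were also lost when either WT library was left out, which leaves 1 library in that genotype, while the log2 fold changes moved little. Without WT replicate 1 they were 0.33 for Klf4 and 0.36 for Bcl3, and without WT replicate 2 they were 0.34 and 0.38. Klf4 lost its call without knockout replicate 1 too, at a lower log2 fold change of 0.24. Mcl1, which codes for a survival factor and is the most abundant target per kb in WT at 170 ± 6.89 CPM per kb, did not pass, with a log2 fold change of 0.13 (95% interval -0.050 to 0.31, edgeR adjusted p = 0.404). The other 6 targets that did not pass had log2 fold changes between -0.016, for Fos, and 0.52, for Sp5, and they included Myc (0.28, edgeR adjusted p = 0.0608) and Tfcp2l1 (0.34, edgeR adjusted p = 0.0956). These 4 were named after their values were seen. Tfcp2l1, a transcription factor that mediates much of the response to LIF in mESCs, had 418 and 347 CPM in WT and 547 and 420 CPM in the knockout, which just did not overlap.

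**Figure D5:**
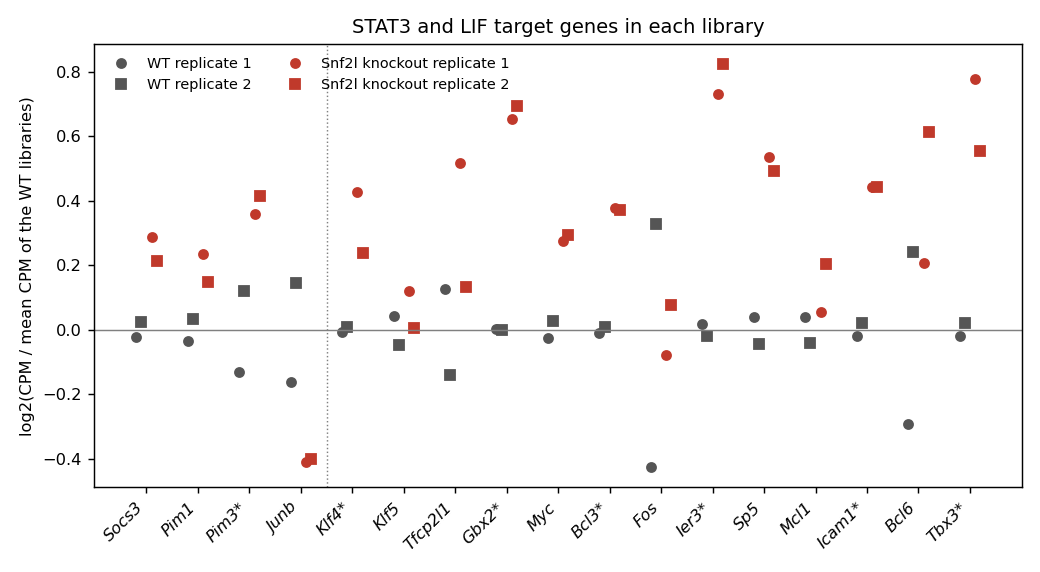
Level of the 4 target genes among the 8 (left of the dotted line) and of 13 further target genes in each library, as log2 of CPM over the mean CPM of the WT libraries. Grey marks WT and red the Snf2l knockout, circles replicate 1 and squares replicate 2, and an asterisk an edgeR adjusted p-value under 0.05. Both knockout libraries lie above both WT libraries in 10 of the 13 further targets, and Junb lies below. Of all tested genes 50.5% did not overlap between genotypes, in either direction.

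In the lists of ligands, receptors, kinases and STATs, and adaptors and inhibitors, 2 of 37 tested genes (5.41%) were called, against 9.21% of all tested genes and 6.18% of those outside chromosomes 8 and Y. Of the 9 ligand genes 5 were tested and 0 were called in edgeR. At an unadjusted edgeR p-value under 0.05 stood 4 of these, 3 higher and 1 lower, against 22.2% of all tested genes. Ctf1, the most abundant ligand gene per kb in WT, had a log2 fold change of -0.41 (edgeR adjusted p = 0.370). Lif itself was chosen after its values were seen. It had 54 and 61 counts in WT and 79 and 86 in the knockout, with a log2 fold change of 0.42 (edgeR adjusted p = 0.203). Of the 5 other receptor genes 4 were tested and 0 were called in edgeR, with 1 at an unadjusted p-value under 0.05, and Cntfr, the most abundant, had a log2 fold change of 0.15 (edgeR adjusted p = 0.552). Of the 9 other kinase and STAT genes, all tested, 1 was called lower. This was Jak3, with 37.6 and 38.8 CPM in WT and 28.6 and 24.0 CPM in the knockout and a log2 fold change of -0.54 (edgeR adjusted p = 0.00761). Stat6, the most abundant of that list per kb in WT, had -0.13 (edgeR adjusted p = 0.536). Of the 20 adaptor and inhibitor genes 19 were tested and 1 was called lower, Gab1, which couples the receptor to other signaling pathways and had 659 and 617 CPM in WT and 508 and 498 CPM in the knockout, a log2 fold change of -0.34 (edgeR adjusted p = 0.0147). The median of that list was -0.012, and its Gab1 call was lost without WT replicate 1 (adjusted p = 0.278) and without WT replicate 2 (adjusted p = 0.0740) in edgeR.

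Jak3 and Gab1 lie on chromosome 8, as does Junb. With the chromosome 8 median removed, the log2 fold change of Jak3 was -0.03 (edgeR adjusted p = 0.917) and that of Gab1 was 0.16 (adjusted p = 0.299), so the sign of Gab1 turned, and neither was called. Among 8 paralogs of the PIM and AP-1 families, 7 were tested and 1 was called, Fosl2, an AP-1 partner of the JUN proteins, which had 3.01 and 3.52 CPM in WT and 5.99 and 5.01 CPM in the knockout. The background was 9.21% of all tested genes called and 4.0% called higher. Fosl2 had a log2 fold change of 0.75 (edgeR adjusted p = 0.0302). Its call was lost in DESeq2 (adjusted p = 0.212) and with the median of its own chromosome removed (edgeR adjusted p = 0.0615). The call was also lost without WT replicate 1, at a log2 fold change of 0.64, and without knockout replicate 1, at 0.61. Jund, the most abundant of the paralogs per kb in WT, had a log2 fold change of -0.36 (edgeR adjusted p = 0.0764), and 0.15 (adjusted p = 0.533) relative to the chromosome 8 median. Jund was called lower without WT replicate 1 (edgeR adjusted p = 0.0424) and without knockout replicate 1 (edgeR adjusted p = 0.00677).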

How the data were processed

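Poly(A) RNA of 2 WT and 2 Snf2l knockout mESC libraries was analysed. The authors deposited 1 table of whole-number read counts per Entrez gene, not normalized, after aligning reads to mm10 with QuasR and HISAT2 and counting over UCSC Known Genes. Per the labels' processing notes bcl2fastq 2.17 was used. The labels name a stranded TruSeq kit while the methods of the study name another TruSeq kit, not described there as stranded, and whether counting used the strand is not given in the sources used here. Identifiers were matched to RefSeq GRCm38.p6 for 24570 of 24594 genes (99.9%).

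Counts were tested in R 4.3.3 with edgeR 4.0.16: filterByExpr with a minimum count of 10, TMM scaling, and the legacy quasi-likelihood test with genotype as the only term, two-sided, adjusted by the Benjamini-Hochberg method over 13840 genes. SE and 95% intervals come from the fold change and the F statistic. CPM used TMM-scaled library sizes, and CPM per kb the gene length in the table. Total counts of 13771642 to 15608803 per library set the precision, and the common biological coefficient of variation was 7.45%. For Junb and other genes of chromosome 8 the fit was repeated with the median log2 fold change of the chromosome as an offset. GC content was that of the longest GENCODE transcript, known for 96.0% of tested genes. The edgeR test and the chromosome 8 offset were tried on simulated counts.

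The 8 genes and the lists were chosen with earlier results of these data known. Named are the 8 genes, Smarca1, any gene of the other pathway lists that was called, the gene of each list with the highest WT level per kb, and the 3 genes nearest in profile to the member with the smallest p-value. Others are said to have been chosen after their values were seen, apart from markers, neighbours and promoters named beside a count. Alternatives were RLE, upper-quartile and total-count scaling, TMM from genes outside chromosomes 8 and Y, 2 other filters, DESeq2 1.42.0, the edgeR 4 fit, robust estimation, a replicate block, each library left out, other chromosome references and, chosen after seeing the data, GC offsets and the chromosome 8 offset for the other pathway genes. The values of 1 other gene of the ligand list are not reported here.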

Additional observations from a re-analysis of the deposited data

How the results depend on the processing

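With 2 libraries per genotype and 1 clone, small differences can rest on single libraries. When a library was left out, its genotype had 1 library, which was assumed to vary like the other genotype. Of the 8 genes, 1 passed an adjusted p-value of 0.05. It was 2 (Pim3 and Junb) with TMM from genes outside chromosomes 8 and Y and with GC offsets, and between 1 and 3 when a library was left out, with Pim3 lost and Junb called without WT replicate 1. No alternative made a DEG of any of the 8. All genes called numbered 1274, and 799 in DESeq2 (no adjusted p-value for 1074 genes), and 829 to 1932 without a library. DEGs numbered 137, and 88 in DESeq2. Of the other pathway genes 9 were called, 6 in DESeq2 and 7 with the chromosome 8 median removed. These 7 were 5 targets, 1 paralog and 1 ligand gene, and Klf4 was not among them (edgeR adjusted p = 0.056). Gab1 turned to 0.16 with the median of its own chromosome removed, for which the size of that median, -0.51, accounts by construction.

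The replicate numbers are not stated to mark a shared culture. The deviations of same-numbered libraries correlated with r = 0.196 over 13840 genes, which does not establish pairing. With 2 libraries per genotype the opposite pairing gives -0.196 by construction. With the replicate block 5 of the 8 genes were called (Il6st, Socs3, Pim1, Pim3 and Junb), as were 25 other pathway genes and 3471 of all genes, with 223 DEGs. With the replicate block and GC offsets the counts were 4, 24, 3446 and 227. The log2 fold change of Pim3 was 0.39 under the block.

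The result for Junb relative to the chromosome 8 median kept its side of the threshold in all 17 alternatives. Of these, 1 used no offset and so gives the plain difference between genotypes, not one relative to that median. Its value was -0.41 (edgeR adjusted p = 0.0522), of the opposite sign. Over the 8 genes, the alternatives kept the side of the threshold 120 times, gained the call 14 times and lost it 2 times, both for Pim3. Direction turned in some that kept their side. Without knockout replicate 1 the log2 fold change was -0.035 for Jak1 and -0.067 for Stat3. Stat3 was at -0.0034 with the replicate block and GC offsets, and Junb at 0.099 with the median of its own chromosome removed.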
